A study of Mus musculus with 8 samples.

Results

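The tricarboxylic acid (TCA) cycle enzymes described here are Cs, Idh2, Idh3a, Idh3b, Idh3g, Ogdh, Sdha, Fh1 and Mdh2, 9 genes whose probes were taken by gene symbol from an array with 25697 probes. Of these, 8 genes had a probe and 9 probes were found in all, since Idh3g had 2. Sdha, the flavoprotein of succinate dehydrogenase, had no probe under its symbol in the annotation used and was not analysed here. RNA of cardiomyocytes (CMs) was hybridised to MouseRef-8 v2.0 BeadChips of Illumina, on which the brightness of the beads with a given probe reads the amount of its transcript. There were 2 arrays of embryonic CMs (ECM, fetal ventricles at E15.5, CD1 background), 3 arrays of hypertrophic adult CMs (TAC, adult ventricles of CD1 mice 7 days post-op) and 3 arrays of normal adult CMs (ACM, adult ventricles, CD1 background). The labels name no operation for the ACM group and give its strain in other words than that of the TAC group, so operation, strain and hypertrophy cannot be told apart. All preparations were enriched for CMs and were not described as pure, and since no label ties the samples to separate animals, p-values cover only the spread among samples, part or all of which may be technical.

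The TCA cycle runs in the mitochondrial matrix, where it oxidises acetyl groups to carbon dioxide and passes the electrons to the respiratory chain. The adult heart draws most of its ATP from mitochondrial oxidation and is rich in these enzymes, whereas the fetal heart relies more on glycolysis. Citrate synthase opens the cycle, isocitrate dehydrogenase and 2-oxoglutarate dehydrogenase carry out its oxidative decarboxylations, and succinate dehydrogenase, fumarase and malate dehydrogenase restore oxaloacetate. The NAD-linked isocitrate dehydrogenase, IDH3, is built of alpha, beta and gamma subunits, encoded by Idh3a, Idh3b and Idh3g. In the human enzyme the alpha subunit carries the catalytic activity, in pairs with a beta or a gamma subunit, and the gamma subunit takes part in allosteric control.

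The promoters of Idh3b and Idh3g are shown because these subunits of one enzyme were found on opposite sides of the adult level on the ECM arrays. Each window reaches 250 bases upstream and 50 bases downstream of the annotated start in RefSeq (GRCm38.p6), 5′ to 3′ on the strand of the gene. The Idh3b window lies at chr2:130284402-130284701 on the minus strand and the Idh3g window at chrX:73786848-73787147 on the minus strand. Capitals mark matches, on either strand, to the letters CCGGAAG (bound by ETS factors), AAGATGGC (bound by YY1) and CCAAT (bound by NF-Y). TCAAGGTCA (bound by estrogen-related receptors) was searched too, with no match in either window.
Idh3b promoter: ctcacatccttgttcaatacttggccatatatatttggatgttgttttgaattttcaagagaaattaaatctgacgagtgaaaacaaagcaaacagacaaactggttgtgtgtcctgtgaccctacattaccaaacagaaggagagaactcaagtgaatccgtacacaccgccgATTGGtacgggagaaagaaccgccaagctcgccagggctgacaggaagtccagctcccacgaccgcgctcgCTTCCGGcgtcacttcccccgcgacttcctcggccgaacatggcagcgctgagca
Idh3g promoter: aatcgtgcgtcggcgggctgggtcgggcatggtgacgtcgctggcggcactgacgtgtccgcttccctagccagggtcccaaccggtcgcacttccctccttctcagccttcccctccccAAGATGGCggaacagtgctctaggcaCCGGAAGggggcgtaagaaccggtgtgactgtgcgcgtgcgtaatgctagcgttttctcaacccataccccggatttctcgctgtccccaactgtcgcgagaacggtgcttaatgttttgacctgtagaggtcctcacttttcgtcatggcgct
The Idh3b window held CTTCCGG, the ETS letters on the other strand, across the start site, and ATTGG, the CCAAT letters on the other strand, upstream of it. The Idh3g window held CCGGAAG and AAGATGGC and no CCAAT. Of 32544 promoter windows of the same length, 8.91% held the ETS letters, 2.77% the YY1 letters, 37.4% CCAAT and 0.412% the letters of the estrogen-related receptors. Over the members, 8 genes including Sdha had at least 1 window in the table, and among these 2 held the ETS letters (Idh3b and Idh3g), 1 the YY1 letters and 6 CCAAT. GC content was 50.3% in the Idh3b window and 60.3% in the Idh3g window. These matches describe letters, not binding.

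Values below are log2 intensities after background correction and quantile normalization, where a difference of 1 is a doubling of signal, and a gene with several probes is represented by its brightest. Between 51.61% and 51.63% of probes were detected on the ECM arrays (detection p under 0.05), 45.84% to 46.33% on the TAC arrays and 41.9% to 43.95% on the ACM arrays. All 9 probes of the TCA cycle enzymes had a deposited detection p of 0 on all 8 arrays, so every value is a measured level and none is a bound. Levels are compared between samples for the same probe and not between probes. Of 10 CM markers, 9 had a probe, of which 8 were detected on every ECM array and 9 on every TAC and ACM array. The 9 summed to 130470 to 138850 in ECM, 166140 to 178650 in TAC and 155530 to 169000 in ACM on the linear normalised scale. Between ECM and ACM, 5 of the 9 did not pass limma's test, among them Actn2 at 0.03 and Myl2 at -0.16, while Myh6, Tnni3 and Ryr2 were lower and Myh7, the fetal myosin heavy chain of the mouse ventricle, was higher. Beside them, markers of other cells were present. The fibroblast markers (10 measured of 12) summed to 5842 to 6430 in ECM, 7086 to 11582 in TAC and 1944 to 3410 in ACM on the same scale. Ddr2 was detected on no array, Postn on no ECM or ACM array and Col1a2 on no ACM array. The endothelial markers (12 of 12) summed to 9584 to 11939 in ECM, 3970 to 6831 in TAC and 1782 to 5474 in ACM, with Kdr detected on no TAC or ACM array. The erythroid markers (3 of 8), led by the globin gene Hba-a1, summed to 33529 to 33573 in ECM, 146 to 3410 in TAC and 132 to 1300.5 in ACM. Of the others summed, Alas2 was detected on no ACM array and Slc4a1 on no TAC or ACM array. Epb42 and Klf1, detected on no ECM or TAC array, did not pass the filter and are not in the sum. Smooth muscle and pericyte markers (7 of 8) summed to 28412 to 29243 in ECM, 4394 to 6511 in TAC and 8315 to 13159 in ACM, a sum led by the smooth muscle actin Acta2, which was higher in ECM than in ACM by 1.48 and lower in TAC than in ACM, at -1.12. Other members of that list ran the other way, as Myh11 was lower in ECM than in ACM, at -0.67, and Cspg4 higher in TAC than in ACM by 0.77. The sum thus follows Acta2 and does not measure the share of smooth muscle cells. Leukocyte markers (6 of 10) summed to 941 to 1242 in ECM, 1597 to 2200 in TAC and 358 to 2855 in ACM, with Ptprc and Itgam detected on no array, and epicardial markers (7 of 7) to at most 642 on any array. Their part in the results was not tested. Fewer CMs in a preparation cannot be told apart from less RNA of a gene per CM, nor RNA of other cells from more RNA of a gene per CM.

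The ECM arrays were lower than the ACM arrays for 6 of the 8 TCA cycle enzymes measured and higher for Idh3b alone. Idh2 had a higher level in ECM that did not pass the test. Ogdh differed most, at 7.29-fold lower in ECM, and Idh3b was 3.65-fold higher. The test was limma's moderated test on 1 fit of all 8 arrays, with Benjamini-Hochberg adjustment over 9803 genes and a threshold of 0.05. Across all genes 22.7% were called lower and 26.2% higher in ECM, so that 6 of 8 enzymes lower stood against 22.7%, and 1 of 8 higher against 26.2%. The 8 members had a median difference of -0.89, beside 0.01 over all genes. All 8 had normalised ECM and ACM values that did not overlap, as had 66.3% of all genes.

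**Figure D1:**
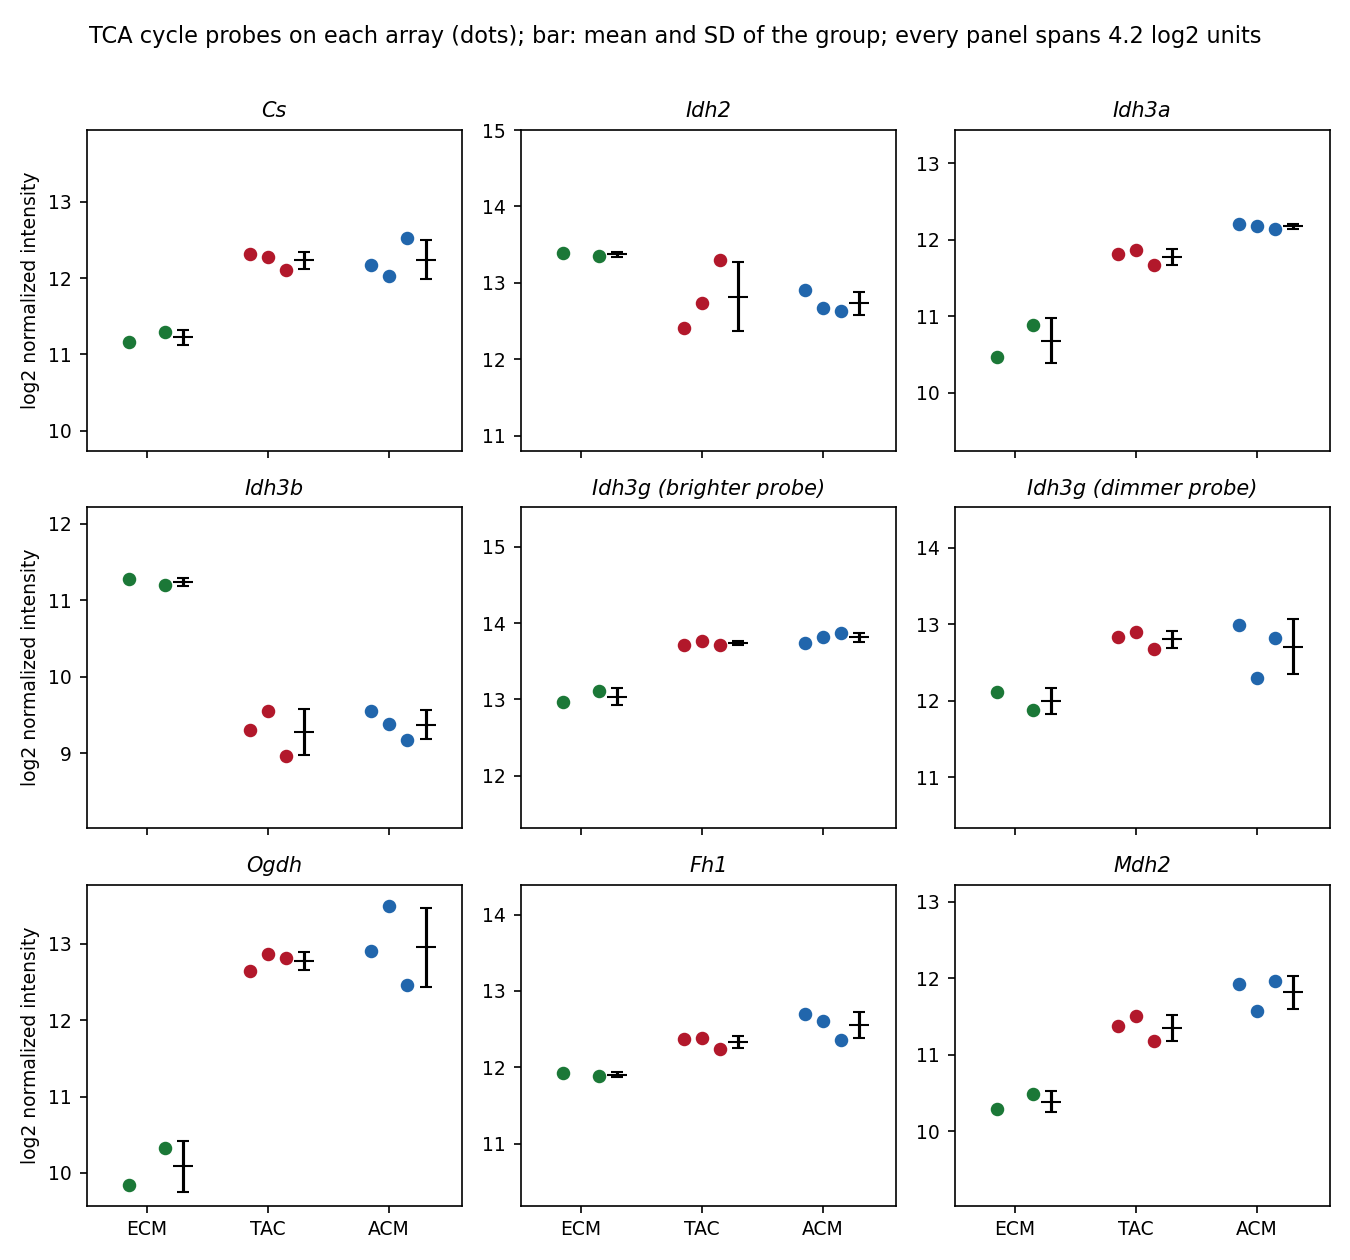
Log2 normalised intensity of each TCA cycle probe (vertical axes, each panel spanning the same log2 range) on 2 ECM, 3 TAC and 3 ACM arrays (dots), with the mean and SD of each group beside them. The ECM dots lie below all adult dots for Cs, Idh3a, both Idh3g probes, Ogdh, Fh1 and Mdh2 and above all of them for Idh2 and Idh3b.

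Cs, citrate synthase, joins acetyl-CoA to oxaloacetate. It had log2 values of 11.16 and 11.30 on the ECM arrays, 12.31, 12.27 and 12.11 on the TAC arrays, and 12.17, 12.02 and 12.52 on the ACM arrays. Both ECM values lay below all adult values, while the TAC and ACM ranges overlapped. The level in ECM was lower than in ACM, at a log2 difference of -1.01 (SE 0.19, limma adjusted p = 0.00201), 2.02-fold. Before normalisation its deposited intensities averaged 3492.1 in ECM and 4391.7 in ACM, a smaller ratio. TAC and ACM differed by -0.01 (95% interval -0.40 to 0.38, limma adjusted p = 0.988).

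Idh2, the NADP-linked mitochondrial isocitrate dehydrogenase, makes NADPH and acts beside IDH3. Its log2 values were 13.39 and 13.35 in ECM, 12.41, 12.74 and 13.30 in TAC, and 12.91, 12.67 and 12.63 in ACM. The ECM values were the highest of all, with TAC replicate 3 just below them and above every other adult array. ECM and ACM differed by 0.64 (SE 0.25, limma adjusted p = 0.0625), which did not pass, with a 95% interval of 0.07 to 1.21. Deposited intensities of Idh2 averaged 12853 in ECM and 6276.9 in ACM, a larger ratio than after normalisation. Idh2 passed, as a higher level in ECM, without TAC replicate 1 (limma adjusted p = 0.0403) or without TAC replicate 3 (0.0245), although neither array is part of the contrast. Leaving out an array also changes the normalization, the filter and the estimate of the spread, which all arrays share. ECM and TAC differed by 0.55 (SE 0.25, limma adjusted p = 0.107).

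The subunits of IDH3 moved apart. Idh3a, the catalytic alpha subunit, had log2 values of 10.47 and 10.88 in ECM, 11.81, 11.86 and 11.66 in TAC, and 12.21, 12.18 and 12.14 in ACM. The groups lay in 3 separate ranges, with ECM lowest, TAC between and ACM highest. ECM was lower than ACM, at a log2 difference of -1.50 (SE 0.18, limma adjusted p = 0.00013), 2.83-fold. The deposited intensities of Idh3a averaged 2517.4 in ECM and 4213.8 in ACM, a smaller ratio than after normalisation. TAC against ACM gave -0.40 (SE 0.16), at an unadjusted p of 0.034 and a limma adjusted p of 0.196, which did not pass.

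Idh3b, the beta subunit, went the other way. The deposited intensities, before any normalisation, were 4074.6 and 3072.4 on the ECM arrays, 526.4, 696.4 and 513.4 on the TAC arrays, and 638.9, 691.2 and 446.3 on the ACM arrays. The normalised log2 values were 11.28 and 11.20 in ECM, 9.30, 9.56 and 8.96 in TAC, and 9.55, 9.39 and 9.18 in ACM. Both ECM values stood well above every adult value on either scale, and the adult groups overlapped. Idh3b was higher in ECM than in ACM by 1.87 (SE 0.21, limma adjusted p = 0.0001) and higher than in TAC by 1.97 (SE 0.21, limma adjusted p = 9.8e-05), 3.91-fold. TAC and ACM differed by -0.10, with a 95% interval of -0.53 to 0.33 and a limma adjusted p of 0.816.

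Idh3g, the gamma subunit, was read by 2 probes. The brighter, ILMN_2997022, gave 12.96 and 13.11 in ECM, 13.72, 13.77 and 13.72 in TAC, and 13.74, 13.82 and 13.87 in ACM. The dimmer, ILMN_1224368, gave 12.12 and 11.87 in ECM, 12.83, 12.90 and 12.67 in TAC, and 12.99, 12.30 and 12.82 in ACM. On both probes the normalised ECM values were the lowest and the adult groups overlapped. On the dimmer probe the deposited intensities of ECM, 6795.8 and 4511, overlapped those of both adult groups before normalisation. These were 6128.9, 7267.4 and 6296.1 in TAC and 7909.7, 5129.7 and 5637.1 in ACM. With each probe tested on its own over 13494 probes, of which 22.2% were called lower and 23.7% higher, ECM was lower than ACM, at -0.77 (SE 0.16, limma adjusted p = 0.00335) on the brighter and at -0.71 (SE 0.23, limma adjusted p = 0.0297) on the dimmer probe. In the fit by gene, Idh3g differed by -0.77 (SE 0.15, limma adjusted p = 0.00254). Between TAC and ACM the probes had opposite signs, -0.08 on the brighter and 0.10 on the dimmer, and neither passed.

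With the subunits set against each other on the same array, Idh3b stood apart from the other subunits on the ECM arrays, beyond the spread of the adult arrays. The log2 difference of Idh3b minus Idh3a, counted from its mean in ACM, was 3.61 and 3.12 in ECM, 0.29, 0.50 and 0.10 in TAC, and 0.15, 0.01 and -0.16 in ACM. For Idh3b minus Idh3g (brighter probe) it was 2.76 and 2.53 in ECM, 0.02, 0.23 and -0.32 in TAC, and 0.25, 0.00 and -0.25 in ACM. With the dimmer Idh3g probe the ECM values were 2.49 and 2.66, so either probe put Idh3b apart from the gamma subunit in ECM alone. Idh3g minus Idh3a was 0.86 and 0.59 in ECM, 0.27, 0.27 and 0.42 in TAC, and -0.10, 0.01 and 0.09 in ACM. The 3 groups did not overlap on this last difference with the brighter probe, ECM being highest. With the dimmer probe it was 1.12 and 0.46 in ECM, 0.49, 0.51 and 0.48 in TAC, and 0.25, -0.41 and 0.15 in ACM, where ECM and TAC overlapped. No test was run on these differences, and the place of each probe in its transcript was not used, so splice forms of Idh3b were not told apart.

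**Figure D2:**
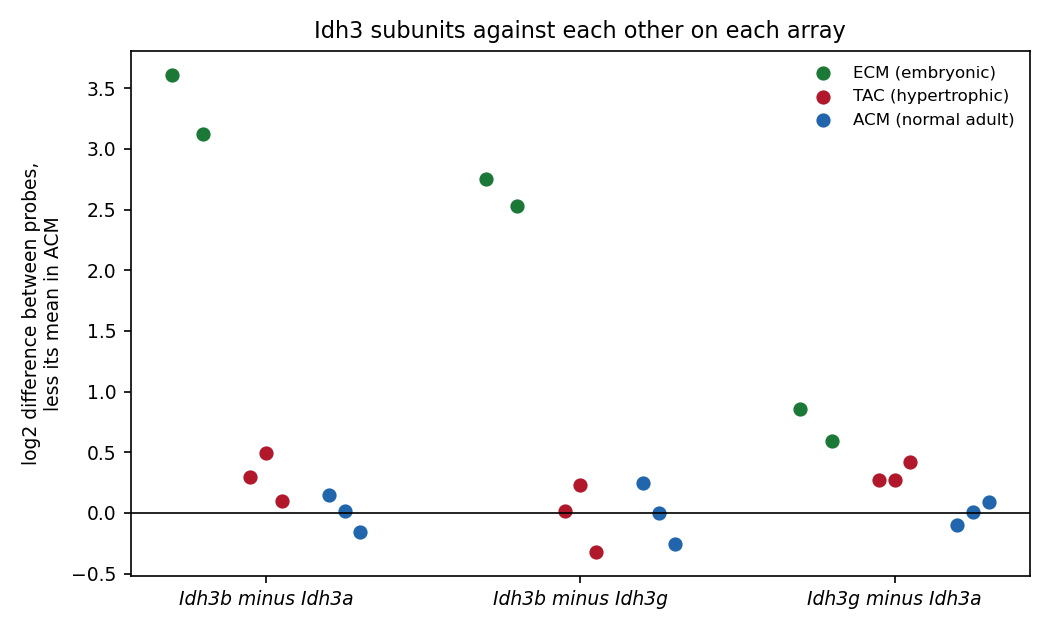
Log2 difference between the probes of 2 IDH3 subunits on each array, less the mean of that difference in ACM (vertical axis), for 2 ECM, 3 TAC and 3 ACM arrays and the brighter Idh3g probe. Idh3b minus Idh3a reached 3.61 and 3.12 in ECM, against at most 0.50 in TAC and 0.15 in ACM.

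Ogdh encodes the E1 component of the 2-oxoglutarate dehydrogenase complex, which decarboxylates 2-oxoglutarate. Its deposited intensities were 1730.7 and 1817.2 in ECM, 5123.4, 7164.9 and 7052.3 in TAC, and 7294.3, 11773.2 and 4322.2 in ACM. After normalisation these were 9.85 and 10.32 in ECM, 12.64, 12.86 and 12.82 in TAC, and 12.90, 13.50 and 12.46 in ACM. The ACM arrays spread more widely than the TAC arrays, and every adult array lay far above the ECM arrays. ECM was lower than ACM, at a log2 difference of -2.87 (SE 0.29, limma adjusted p = 5.2e-05) and lower than TAC, at -2.69 (SE 0.29, limma adjusted p = 9.9e-05). TAC and ACM differed by -0.18, with a 95% interval of -0.76 to 0.41 and a limma adjusted p of 0.755, and without ACM replicate 2, the highest array, the difference turned to 0.09.

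Fh1 encodes fumarase, which hydrates fumarate to malate. It gave 11.93 and 11.89 in ECM, 12.37, 12.39 and 12.24 in TAC, and 12.69, 12.60 and 12.36 in ACM. The ECM arrays were the lowest, the TAC and ACM ranges overlapped, and the deposited intensities, 5968.3 and 4570.3 in ECM against 6322.6, 6281.4 and 4031.6 in ACM, overlapped before normalisation. ECM was lower than ACM, at -0.64 (SE 0.17, limma adjusted p = 0.011), the smallest difference among the members that passed, and TAC and ACM differed by -0.22 (SE 0.15, limma adjusted p = 0.458). The call between ECM and ACM was lost without ECM replicate 1 (limma adjusted p = 0.0545), without ECM replicate 2 (0.0688), and with the arrays scaled to their medians (-0.43, limma adjusted p = 0.134).

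Mdh2, mitochondrial malate dehydrogenase, regenerates oxaloacetate. Its values were 10.29 and 10.48 in ECM, 11.37, 11.51 and 11.18 in TAC, and 11.93, 11.57 and 11.96 in ACM. As with Idh3a, the groups did not overlap after normalisation, and TAC lay between ECM and ACM. The deposited intensities of Mdh2, 2236.9 and 2013.7 in ECM against 2168.6, 2709.2 and 2278.2 in TAC, overlapped before normalisation. ECM was lower than ACM, at -1.44 (SE 0.19, limma adjusted p = 0.00026), 2.71-fold. TAC against ACM gave -0.47 (SE 0.17), with an unadjusted p of 0.0232 and a limma adjusted p of 0.160, which did not pass.

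**Figure D3:**
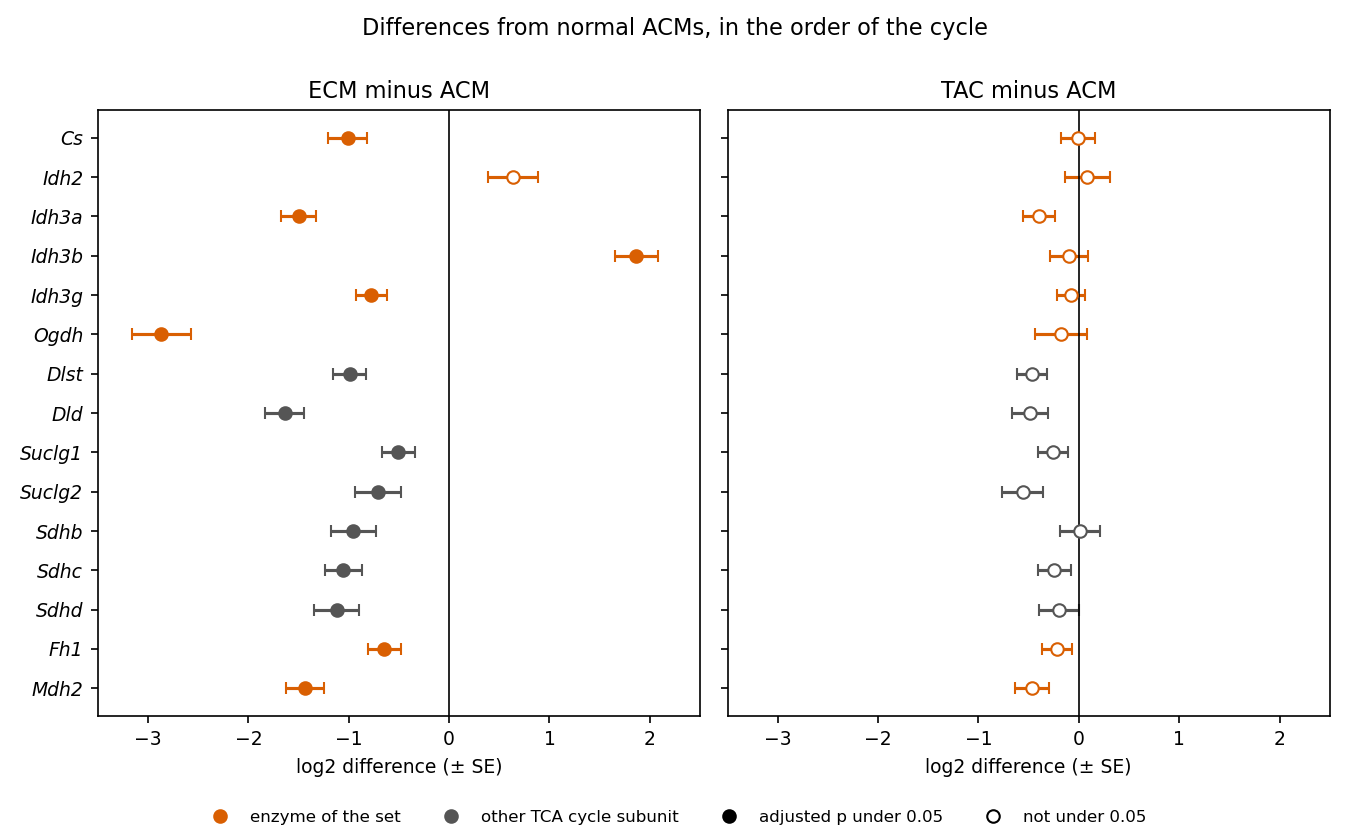
Log2 difference from normal ACMs (horizontal axes, error bars SE) of ECM (left) and TAC (right) for 8 TCA cycle enzymes and 7 other subunits, in the order of the cycle, with filled points for a limma adjusted p under the threshold. In ECM every point but Idh2 and Idh3b lies below 0 and is filled, and Idh3b is filled at 1.87, whereas no point is filled in TAC.

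In hypertrophic ACMs, none of the 8 enzymes passed limma's test against normal ACMs, and Idh3a and Mdh2, both lower, had an unadjusted p under 0.05. Of all genes 5.66% were called (3.84% higher and 1.83% lower), and 10% were lower at an unadjusted p under 0.05. The same 2 enzymes were those whose TAC and ACM values did not overlap, 2 of 8 beside 25.3% of all genes. The differences of all 8 lay between -0.47 and 0.08, with a median of -0.14, beside -0.02 over all genes. In TAC 8 of 10 fibroblast markers were called higher than in ACM, and their part in the values of the enzymes was not tested. Their linear sum was highest in TAC, but against TAC Pdgfra was higher in ECM and Mfap5 lower, and the other 8 did not pass.

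Against the TAC arrays, the ECM arrays were lower for 5 of 8 enzymes (19.7% of all genes were lower), namely Cs, Idh3a, Idh3g, Ogdh and Mdh2, and higher for Idh3b (23.8% of all genes were higher). Idh3a differed by -1.10 (SE 0.18, limma adjusted p = 0.001), Mdh2 by -0.97 (SE 0.19, limma adjusted p = 0.00314), and Fh1 by -0.43, which did not pass (limma adjusted p = 0.0681). This comparison uses the ECM arrays of the first and the TAC arrays of the second, which both use the ACM arrays, so the 3 are not independent of each other. All 8 members had normalised ECM and TAC values that did not overlap, as had 65.8% of all genes.

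Among the other subunits of the cycle, 7 genes were measured. The probe of Sucla2, a subunit of succinyl-CoA synthetase, did not pass the detection filter. All 7 were lower in ECM than in ACM by limma's test, with a median difference of -0.99, where 22.7% of all genes were lower and the median of all genes was 0.01. Dld, the dihydrolipoyl dehydrogenase shared by several 2-oxoacid dehydrogenases, differed by -1.64 (SE 0.20), and Dlst, the E2 of the 2-oxoglutarate dehydrogenase complex, by -0.99 (SE 0.17), so both partners of Ogdh were lower with it. The succinate dehydrogenase subunits Sdhb, Sdhc and Sdhd, which carry electrons to ubiquinone, differed by -0.95, -1.05 and -1.12, and the succinyl-CoA synthetase subunits Suclg1 and Suclg2 by -0.51 and -0.70. None of the 7 was called between TAC and ACM by limma, and 3 (Dld -0.48, Dlst -0.47 and Suclg2 -0.56) had an unadjusted p under 0.05, all lower in TAC, as were 10% of all genes. For 5 of the 7 (Dld, Dlst, Suclg1, Suclg2 and Sdhc) every TAC value lay below every ACM value. Of all genes, 25.3% had TAC and ACM values that did not overlap, either way. Against TAC, 5 of 7 were lower in ECM, as were 19.7% of all genes. The count of 7 lower in ECM than in ACM fell to 5 with median scaling, without ACM replicate 2 or without ECM replicate 1, and to 4 without ECM replicate 2. It was 6 without ACM replicate 1, without ACM replicate 3 and with the replicate number as a block, where Suclg1 did not pass (limma adjusted p = 0.0538). The count of 5 against TAC fell to 2 with median scaling, where Suclg2 turned to 0.45, to 3 without ECM replicate 1 and to 2 without ECM replicate 2. It was 4 without TAC replicate 2, without TAC replicate 3 and with the block, where Dlst did not pass (limma adjusted p = 0.0793). Dlst was called lower in TAC than in ACM with no background correction (limma adjusted p = 0.0293) and with an intensity trend in the variance (limma adjusted p = 0.033).

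Enzymes around the cycle were mixed. Of 16 measured genes for anaplerosis, shuttles, cytosolic counterparts and succinate dehydrogenase assembly, 2 were higher and 8 lower in ECM than in ACM, beside 26.2% higher and 22.7% lower of all genes. Acly, ATP citrate lyase, which cuts exported citrate in the cytosol, was higher by 2.30 (SE 0.21, limma adjusted p = 2.6e-05). The other, Slc25a1, the mitochondrial citrate carrier, was higher by 0.75 (SE 0.23, limma adjusted p = 0.0239), a call that was lost with the mean of its kept probes, with the replicate number as a block, without either ECM array and without ACM replicate 3, and it was named after its value was seen. Got1, the cytosolic aspartate aminotransferase, was lower, at -2.32 (SE 0.25), as were Slc25a11, the carrier of 2-oxoglutarate and malate, at -1.67 (SE 0.19), and Me1, the cytosolic malic enzyme, at -1.91 (SE 0.24). None of the 16 was called between TAC and ACM by limma, with 1 at an unadjusted p under 0.05. As a list of general mitochondrial genes (import, chaperones, porins and mitochondrial DNA maintenance), 15 were measured, of which 5 were lower in ECM than in ACM (22.7% of all genes were lower), 10 did not pass, and none was called between TAC and ACM by limma (2 at an unadjusted p under 0.05). Their median difference between ECM and ACM was -0.41, beside -0.89 for the enzymes of the cycle and 0.01 over all genes. Clpp, a matrix protease subunit, differed most, by -1.11 (SE 0.16), followed in p by Vdac1, a porin of the outer membrane, at -0.70 (SE 0.16), Timm44 at -0.86 (SE 0.24) and Timm50 at -0.58 (SE 0.16), both of the inner membrane import machinery. These differences depended on the scaling. With median scaling Clpp gave -0.38, Vdac1 -0.21, Timm44 -0.15 and Timm50 0.28, none of which passed. Of the 15, 3 were then higher (Phb2, Tomm70a and Vdac2) and 1 lower (Tomm40), named after their values were seen. Of all 9803 genes, 4561 were higher and 1117 lower in ECM than in ACM with this scaling, against 2573 and 2226 with quantiles. The counts of the list thus moved in the same direction as those of all genes. Without ECM replicate 1, or without ECM replicate 2, 2 of the 15 were lower. Acly, Got1, Slc25a11 and Me1 passed in the same direction under median scaling, at 2.77, -1.45, -1.23 and -0.999. Clpp was called lower in TAC than in ACM with no background correction (limma adjusted p = 0.0293) and in the authors' normalized table (limma adjusted p = 0.0486).

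Across the 8 arrays, which share groups, Idh3a followed Idh3g (brighter probe) with a Pearson r of 0.97 and Mdh2 with 0.97, and Idh3b ran against Idh3a at -0.89 and against Idh3g at -0.96. Among 9802 other genes, those with values most like Idh3b were Acer3, Snrpa, Rpl4, Aurka and Cdc6 (r of 0.991 to 0.996), each higher in ECM than in ACM by 0.78 to 4.37. Aurka, a mitotic kinase, and Cdc6, a replication licensing factor, differed by 4.37 and 1.78. The genes most like Idh3a were Nicn1, Mrpl1, Reep5, Nipa1 and Mad2l1bp (r of 0.992 to 0.997), and those most like Idh3g were Trp53inp2, Hhatl, Cacna2d1, Ogn and Iars2 (r of 0.994 to 0.999). All 10 were lower in ECM. These are descriptions over 8 arrays in 3 groups, in which any gene with a large step between ECM and the adult groups correlates with any other.

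**Figure D4:**
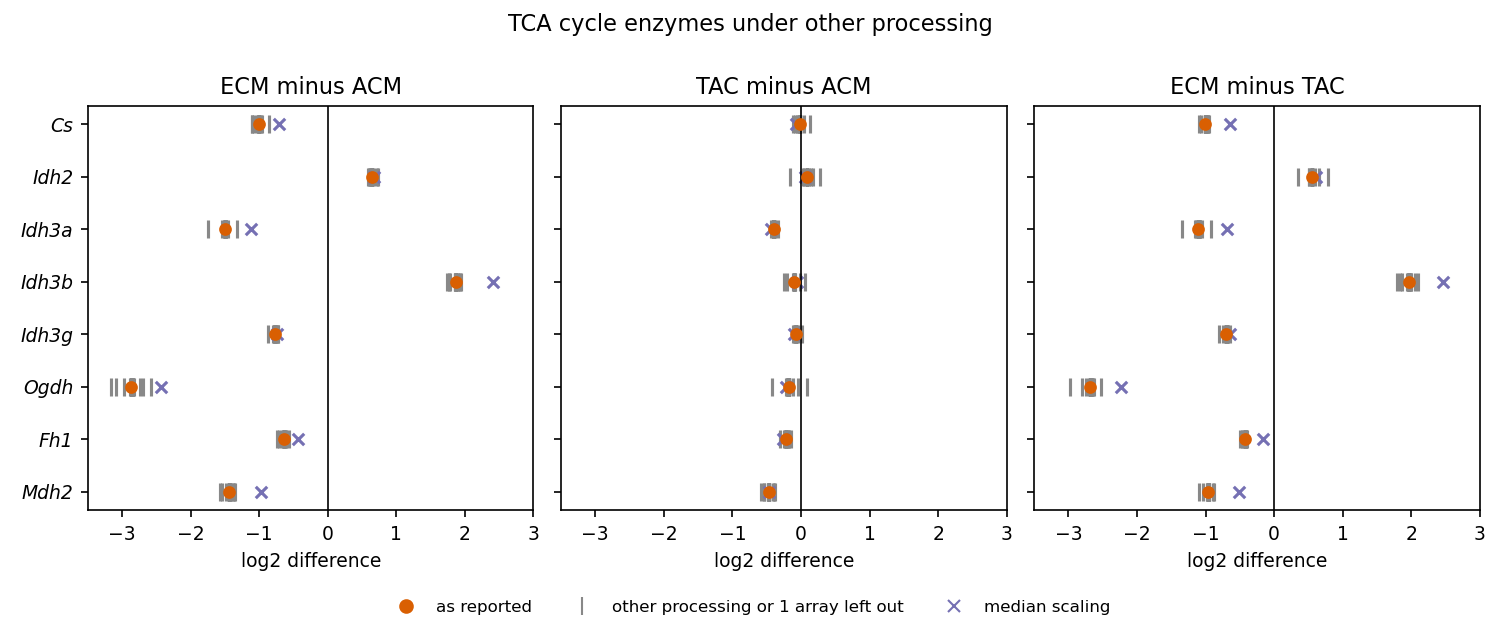
Log2 difference (horizontal axes) of each TCA cycle enzyme in the 3 comparisons, as reported (dots), with other processing or 1 array left out (bars) and with median scaling (crosses). The signs of all 8 differences of ECM against ACM and of ECM against TAC were kept, whereas bars of Cs, Idh2, Idh3b, Idh3g and Ogdh cross 0 in TAC against ACM.

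The scaling of the arrays moved the levels on the ECM arrays. With median scaling in place of quantiles, the median of all genes was 0.52 higher in ECM than in ACM and 0.48 higher in ECM than in TAC, and 80.3% of the calls between ECM and ACM were higher in ECM, against 53.6% with quantiles. The share of calls higher was 80.9%, against 54.7% with quantiles, in ECM against TAC, and 81.2%, against 67.7% with quantiles, in TAC against ACM, where the median of all genes was at 0.03. Counted from the median of all genes in ECM against ACM, Idh3b was still higher in ECM, by 1.89. Ogdh, Idh3a, Mdh2, Idh3g, Cs and Fh1 were lower, at -2.96, -1.64, -1.50, -1.26, -1.23 and -0.95. Idh2 came to 0.16 and so lay near the median of all genes. No test was run on values counted from the median. As fitted with median scaling, Ogdh, Idh3a, Mdh2, Idh3g and Cs gave -2.44, -1.12, -0.976, -0.742 and -0.715, and all of these passed. Fh1 gave -0.43 and did not pass (limma adjusted p = 0.134). Each of these decreases was smaller than with quantiles. Idh3b, at 2.41, passed and Idh2, at 0.68, did not (limma adjusted p = 0.0851), both larger than with quantiles.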

How the data were processed

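Per the labels, total RNA of CM-enriched preparations was hybridised to 8 arrays, 2 ECM, 3 TAC and 3 ACM. The authors deposited a linear intensity for each probe, extracted with GenomeStudio (2011 in the submitters' processing notes, 2.0 in the series text), with no normalization between arrays. The authors also deposited a detection p-value beside each intensity, set against control beads of the array. A second deposited table of intensity values, background-subtracted and quantile-normalized by the authors with settings not given in the sources used here, served as an alternative.

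With limma 3.58.1 in R 4.3.3, neqc (offset 16) removed background and quantile-normalized the log2 values. A probe was kept if its detection p was under 0.05 on 2 or more arrays. Of 25697 probes, 23978 had 1 gene symbol and 1719 none. Where a gene kept several probes, the brightest stood for it, which gave 9803 genes, fitted with 3 group means (lmFit, contrasts.fit, eBayes). The limma fit alone was run on simulated normalised values, drawn independently and with far fewer genes changed than were called between ECM and ACM. That run therefore does not bear on how reliable these calls are. Background correction, normalization, the filter and the choice of probe were not simulated. Named genes were all members with all their probes, all other TCA cycle subunits, 4 of each further list by p, and the 5 genes most correlated with each IDH3 subunit. Members and lists were chosen with earlier results of these data known. Marker sums are sums of linear normalised values.

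Promoters came from RefSeq (GRCm38.p6). Alternatives changed the background correction, scaling, filter, probe summary, variance model, array weights and samples, added the replicate number as a block, or left out each array. The number of arrays limits the precision, and the chip of each array was not used. Figures were drawn by matplotlib 3.10.9 under Python 3.11.15, from tables read by pandas 2.3.3.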

Additional observations from a re-analysis of the deposited data

How the results depend on the processing

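Each of the 8 enzymes was refitted under 19 alternatives in each comparison. In ECM against ACM, 144 of 152 values kept their direction and their side of the threshold, 3 lost the call (all Fh1) and 5 gained it (all Idh2). In ECM against TAC, 146 kept both, and 6 gained the call (5 for Fh1 and 1 for Idh2). The number of enzymes higher in ECM than in ACM was 2 in place of 1 with no background correction, with an intensity trend in the variance and with only the 2 groups in the fit, as Idh2 passed there (limma adjusted p of 0.0431, 0.0297 and 0.0259), and it ranged from 1 to 2 when single arrays were left out. The number higher in ECM than in TAC ranged likewise from 1 to 2, where Idh2 gave 0.79 (limma adjusted p = 0.0174) without TAC replicate 3.

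No enzyme was called in TAC against ACM under any alternative, but 6 of 152 values changed sign. Idh3g turned to 0.0099 with the mean of its kept probes and Ogdh to 0.0924 without ACM replicate 2. Cs turned to 0.1326 without ACM replicate 3. Without TAC replicate 3, Cs came to 0.0516, Idh2 to -0.1597 and Idh3b to 0.0557. With single arrays left out, these differences ranged from -0.117 to 0.1326 for Cs, -0.1597 to 0.2832 for Idh2, -0.2404 to 0.0557 for Idh3b and -0.4173 to 0.0924 for Ogdh.

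Over all 9803 genes, median scaling gave 4561 higher and 1117 lower in ECM than in ACM, in place of 2573 and 2226, and 4333 and 1025 in ECM against TAC, in place of 2332 and 1935. It gave 80 lower in TAC than in ACM, in place of 179. A fit of only the TAC and ACM arrays called 229 higher, in place of 376, and 71 lower. Leaving out single arrays gave 1707 to 2628 higher and 1588 to 2296 lower in ECM against ACM, 1440 to 2446 higher and 1280 to 2085 lower in ECM against TAC, and 176 to 402 higher and 49 to 181 lower in TAC against ACM. The cause of these shifts was not tested.

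With the replicate number as a block, Idh3b was higher in ECM than in ACM by 1.74 and Ogdh lower, at -2.98, and none of 24 member calls changed, while Suclg1 against ACM and Dlst against TAC lost theirs among the other subunits. For samples with the same number, the correlations of their deviations over 7 pairs lay between -0.10 and 0.13, and only 2 were over 0.1. A pair with different numbers, ECM replicate 2 and TAC replicate 1, gave 0.104. The deviations of the 2 ECM arrays from their mean mirror each other, so these correlations are not independent and were no test of pairing. The numbers were not taken to pair the samples.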
